A study of Mus musculus with 2 samples.

Results

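The immediate early genes of the AP-1 and Egr families were compared between NIH3T3 mouse fibroblasts labelled as carrying MARVELD1 and the same line with an empty vector. The set held 10 genes, out of 16532 genes kept on the arrays: Fos, Fosb, Fosl1 and Fosl2, Jun, Junb and Jund, Egr1 and Egr2, and Ier2. A member was every probe whose gene name in the scanner files was one of these, which gave 13 probes and 40 spots on each array. The rule uses gene names and no measured value, but the genes were picked with earlier results of these data known. Each of the 10 genes was well measured on both arrays by at least 1 probe, so none was lost to the filter on dim probes.

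The first group was NIH3T3 cells transfected with pcDNA3.1-MARVELD1, and the other was NIH3T3 cells transfected with the pcDNA3.1 vector alone. NIH3T3 is an established line of mouse embryonic fibroblasts, and the stable lines were selected with G418 and grown in medium containing serum. Whether a line was 1 clone or a pool, and how long after feeding the cells were harvested, is not given in the sources used here. Each group had 1 single-colour array, so every difference below is between 2 arrays, has no replicate check and has no test.

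AP-1 is a transcription factor made of pairs of leucine zipper proteins, in which a Jun protein binds either a Fos protein or another Jun protein. Fos proteins cannot pair with themselves and so need a Jun partner. Egr1 and Egr2 encode zinc finger transcription factors. In resting fibroblasts given serum, Fos, Fosb, Junb, Egr1, Egr2 and Ier2 are switched on within minutes through ERK signalling and the serum response factor. Many of their transcripts are short-lived. Fosl1 and Fosl2 follow later, and Jund is the member with the steadiest expression.

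The sequences that carried the measurements were read from the arrays' own 60-base probes, and 30 bases of each are shown. The Fos, Jun and Egr2 probes are given by their bases 16 to 45, because these 3 were printed as 10 spots each. The Junb pair is given because its probes overlap, with the 22 shared bases in capitals. On mouse build mm9 the Fos probe A_52_P262219 lies on chromosome 12 (86817900 to 86817959), the Jun probe A_51_P325914 on chromosome 4 (94715864 to 94715923) and the Egr2 probe A_51_P173043 on chromosome 10 (67004758 to 67004817). The Junb probes A_51_P159201 and A_51_P159194 start 38 bases apart on chromosome 8 (87500881 and 87500843), so their values are not independent.
Fos, A_52_P262219: gtagatagaaatcaatagctatatccatgt
Jun, A_51_P325914: aagatttagtaattagctgttgattctcaa
Egr2, A_51_P173043: gtgagaatgtgcttcaatgtcactgccgct
Junb, A_51_P159201, bases 31 to 60: acacgcacTTCGTGTCTAAAGTCTATTTTA
Junb, A_51_P159194, bases 1 to 30: TTCGTGTCTAAAGTCTATTTTAagatgtgt

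The 250 bases before the start sites of Fos and Junb are shown because these members lay on opposite sides of 0, with Fos lower and Junb higher on the array labelled MARVELD1. They come from RefSeq, build GRCm38.p6, in which 7 of the 10 members had an entry. Capitals mark the letters TGACG or CGTCA, the core of a cyclic AMP response element. These letters were chosen for display after the sequences had been seen. The Fos stretch is chr12:85473640-85473889, plus strand, and the Junb stretch is chr8:84978749-84978998, minus strand.
Fos: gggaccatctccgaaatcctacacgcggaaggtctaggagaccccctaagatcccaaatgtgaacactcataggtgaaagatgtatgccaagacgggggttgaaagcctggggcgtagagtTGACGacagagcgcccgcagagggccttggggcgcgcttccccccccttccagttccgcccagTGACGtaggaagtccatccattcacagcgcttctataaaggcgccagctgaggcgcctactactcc
Junb: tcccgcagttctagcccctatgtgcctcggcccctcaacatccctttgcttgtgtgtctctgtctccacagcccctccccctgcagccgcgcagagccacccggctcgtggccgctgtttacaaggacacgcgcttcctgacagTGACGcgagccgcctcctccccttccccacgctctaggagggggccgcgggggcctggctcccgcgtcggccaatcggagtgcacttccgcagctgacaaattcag
Fos held the core 129 and 66 bases before its start site, with a TATAAA 33 bases before it, and Junb held it at 106 bases. Of the 7 members with an entry, 4 held the core (Egr2, Fos, Fosb and Junb), against 19.8% of all 27025 genes with an entry. Because the letters were chosen with the sequences in view, this count is not independent evidence.

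A CArG box, the site of the serum response factor, was found in these windows for 1 member, Egr2, against 1.62% of all genes. Egr2 had windows at several start sites, all searched for each motif, while each other member had 1. Its window chr10:67537316-67537565 held a CArG box 72 bases before that start site, not shown. A different CArG box is shown in capitals in 30 bases around it (chr10:67537787-67537816, plus strand), starting 82 bases before another of the Egr2 start sites.
Egr2: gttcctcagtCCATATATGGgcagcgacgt
The other motifs searched on both strands were the AP-1 element TGACTCA or TGAGTCA, the full cyclic AMP element TGACGTCA, within which the core lies, and the Egr site GCGTGGGCG. None was found in the 7 members' windows (0 of 7 each), against 5.16%, 1.77% and 0.622% of all genes. A match is a description of these letters, and a missing match speaks only of these 250 bases.

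The scanner program flagged 223 outlier spots on the array labelled MARVELD1 and 116 on the empty vector array, of 43379 on each. Well above background were 69.0% of spots on the array labelled MARVELD1 and 68.7% on the empty vector array, with 75th percentile intensities of 703.3 and 768.1. Both lay on 1 slide and in 1 scan. Transcripts of Marveld1 were not more abundant under its label: the intensity was 6292.8 on the array labelled MARVELD1 and 8724.7 on the empty vector array by its brighter probe (log2 difference -0.34), and at 126.4 and 184.4 by its dimmer probe (-0.42). Whether these probes read the plasmid's insert is not known, so the label is used as given. All 10 fibroblast markers were detected. By brightest probes their median was -0.72. At least 2-fold higher were 0, against 5.52% of all genes, and 4 were lower, against 3.57%. The 4 were Pdgfrb (-2.10), Col3a1 (-1.56), Fbn1 (-1.32) and Fn1 (-1.12), while S100a4 was highest at 0.25. Other measured probes gave -1.60 for Col1a1, -1.61 for Thy1, -2.13 for Fbn1 and -2.47 for Fn1. Further measured probes gave -0.33 for Col1a1, -0.10 for Col3a1 and 0.03 for Pdgfra. Of 6 epithelial markers, Epcam and Cdh1 stayed below the detection limit on both arrays. Krt5 was 2.02-fold higher, Krt18 at least 2.61-fold higher and Krt14 13.9-fold lower, at 212.4 on the array labelled MARVELD1 and 3226.6 on the empty vector array (median of the 4 measured, 0.55). Epithelial markers at least 2-fold higher numbered 0 to 2 over the 9 alternative settings. Of 5 endothelial markers 0 passed 2-fold (median 0.31), with Cdh5 lowest at -0.74 and Tek highest of those measured on both arrays at 0.31. The dimmer Cdh5 probe gave -1.74, at 52.2 on the array labelled MARVELD1 and 190.0 on the empty vector array. Over the 9 alternative settings, endothelial markers at least 2-fold higher numbered 0 to 1, and those lower 0 to 1. Of 6 macrophage and lymphoid markers 0 passed 2-fold (median 0.49), with Csf1r lowest at -0.29 and Cd3e highest at 0.58, and Ptprc at 55.1 and 44.2. The part of these marker differences in the results below was not tested. In RNA from whole cultures, fewer cells of a type and less RNA per cell cannot be told apart.

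The members did not move together: Fos was at least 2-fold lower on the array labelled MARVELD1, Jund was lower by less, Ier2 was near 0 and the other 7 were above 0 by less than 2-fold. Values are processed intensities, differences are in log2 after each array was scaled to its 75th percentile, and a fold uses the scaled values. Of the 10 genes, 7 were above 0 and 3 below, a share near the 65.4% of all 16532 genes above 0, and so not a result about the set. Their median was 0.53. The median of all genes was itself 0.19 at this scaling, so 0.34 of the members' median lies beyond the shift of all genes. At least 2-fold higher were 0 of 10 members, against 5.52% of all genes, and at least 2-fold lower was 1 of 10, against 3.57%. At a limit of 1.5-fold, 4 of 10 were higher (Egr1, Junb, Fosl1 and Jun) against 19.7% of all genes, and 1 was lower against 9.03%. The count of 4 depends on this scaling. After loess, Egr1 at 0.85 stayed past 1.5-fold, while Fosl1 (0.54), Junb (0.47) and Jun (0.36) fell short. With 10 genes, the counts of 0 and 1 at 2-fold lie near the background shares and are not a result about the set.

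**Figure D1:**
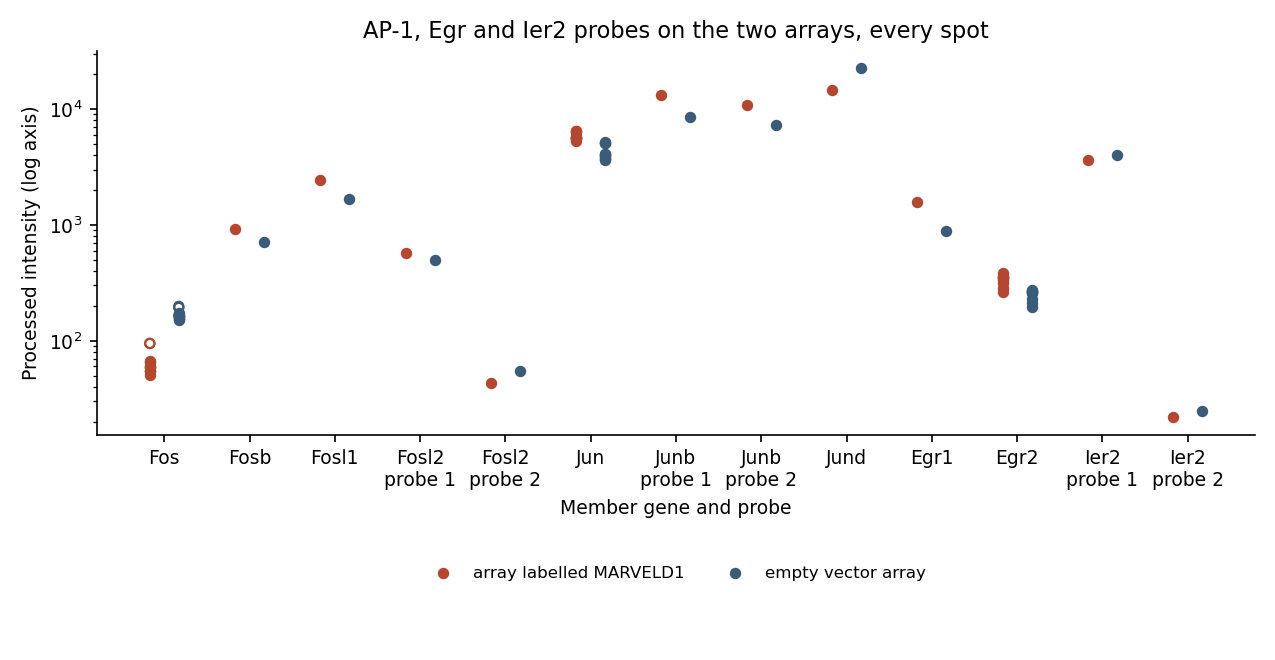
Processed intensity (log axis) of every spot of the 13 member probes, with the array labelled MARVELD1 on the left of each pair and the empty vector array on the right; open circles are spots flagged as outliers. The 10 Fos spots on the array labelled MARVELD1 lie between 50.8 and 95.01, all below those on the empty vector array.

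Fos, the founding Fos subunit and the classic serum-induced transcript of fibroblasts, was the member with the largest difference at this scaling. With normexp and quantile normalization Fos, at -0.85, and Egr1, at 0.86, were of like size. Its only probe was printed 10 times, and its spots, outliers included, ranged from 50.8 to 95.01 with a median of 59.8 on the array labelled MARVELD1, against 152.5 to 198.0 with a median of 163.9 on the empty vector array. All 10 spots were lower on the array labelled MARVELD1, and the spots of the arrays did not overlap. The log2 difference was -1.33, or 2.51-fold lower, and only 1.71% of the genes measured on both arrays lay lower still. The scanner program had flagged 2 spots on the array labelled MARVELD1 and 3 on the empty vector array as outliers. Over the 6 spots usable on both, differences by position ran from -1.54 to -1.12 (SD 0.15), and over all 10 spots from -1.80 to -0.56 with a mean of -1.25 ± 0.11 (SE over spots). These errors cover spot noise on 1 slide, not the spread between cultures.

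The Fos signal was low enough for the background to matter. Before background subtraction its usable spots averaged 132.2 on the array labelled MARVELD1 and 240.0 on the empty vector array, of which 69.8 and 68.8 were subtracted. The scanner program put the error of a spot at 17.2% and 11.2% of its intensity on those arrays. With normexp background correction, which adds an offset of 50, followed by quantile normalization, the difference was -0.85 and no longer past 2-fold. In the authors' deposited table Fos stood at 0.479 on the array labelled MARVELD1 and 1.29 on the empty vector array, a log2 ratio of -1.43.

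**Figure D2:**
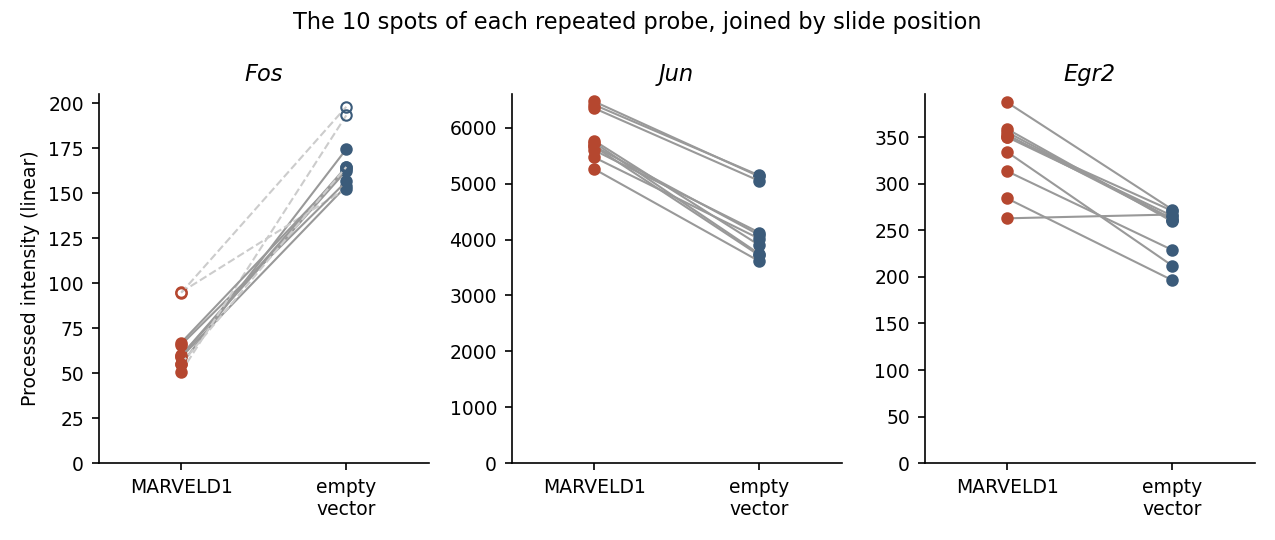
The 10 spots of the Fos, Jun and Egr2 probes on the array labelled MARVELD1 and on the empty vector array (processed intensity, linear axis from 0), joined by slide position; open circles and dashed lines mark flagged spots. All 10 pairs run up to the empty vector array for Fos and down to it for Jun, and 1 Egr2 pair is nearly level.

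By their brighter probes, the other Fos family genes did not share the direction of Fos. Fosb, the family member most like Fos in its serum response, read 925.7 on the array labelled MARVELD1 and 710.7 on the empty vector array, a log2 difference of 0.51. Fosl1, which encodes Fra-1, a subunit that lacks a strong activation domain and accumulates in growing and Ras-transformed fibroblasts, read 2464.2 and 1658.7, a difference of 0.70 or 1.62-fold. Both were higher by more than the scanner program's error of 0.20 to 0.21 for such a difference. Against the median of all genes Fosb lay 0.32 above and Fosl1 0.51 above.

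Fosl2, which encodes Fra-2, gave no clear difference. Its brighter probe read 575.6 on the array labelled MARVELD1 and 500.9 on the empty vector array (0.33), and its dimmer probe, which starts 4536 bases away on chromosome 5, read 43.4 and 54.7 (-0.20 with a scanner error of 0.39). The probes point in opposite directions, and the dimmer one lies close to the lowest well-measured intensities. The gap between Fos and its family was larger than any of these errors: the difference of Fos minus that of Fosl1 was -2.02, a 4.07-fold unequal change, with a scanner error of 0.36. For Fos minus Fosb it was -1.83 and for Fos minus Fosl2 -1.65. A gap between genes does not move with the scaling of whole arrays, and over 9 alternatives Fos minus Fosl1 stayed between -2.04 and -1.35.

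Jun and Junb were higher on the array labelled MARVELD1, while Jund was lower. Jun, the main partner of Fos, was printed 10 times. Its spots ranged from 5261.7 to 6469.5 with a median of 5702.9 on the array labelled MARVELD1, against 3612.8 to 5147.5 with a median of 4048.7 on the empty vector array. All 10 spots were higher on the array labelled MARVELD1 and the ranges did not overlap, giving a log2 difference of 0.59 ± 0.036 (SE over spots), or 1.51-fold. Part of the spread belonged to the slide: the 3 spots in array rows 385, 405 and 445 were the brightest on both arrays, and spots at the same position correlated with an r of 0.92 over 10 spots. By position the difference was 0.44 to 0.46 at those 3 spots and 0.57 to 0.74 at the other 7.

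Junb, an AP-1 subunit that often tempers the activity of Jun, read 13145.4 on the array labelled MARVELD1 and 8516.0 on the empty vector array by one probe, and 10868.4 and 7300.6 by the overlapping one. Both probes were higher, by 0.75 and 0.70, or 1.69-fold and 1.63-fold. With normexp and quantile normalization the Junb difference was 0.40.

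Jund, which encodes the Jun protein linked to slower growth in fibroblasts, read 14690.2 on the array labelled MARVELD1 and 22518.9 on the empty vector array. The difference of -0.49, or 1.40-fold lower, rests on a single spot per array. It lay 0.68 below the median of all genes, and 10.7% of genes measured on both arrays lay lower. The gap between Jund and Junb was -1.24, a 2.37-fold unequal change with a scanner error of 0.29, and stayed between -1.27 and -1.14 over 9 alternatives. The 3 Jun family genes therefore split, with Jund on one side and Jun and Junb on the other with 75th percentile scaling and in 9 alternatives.

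**Figure D3:**
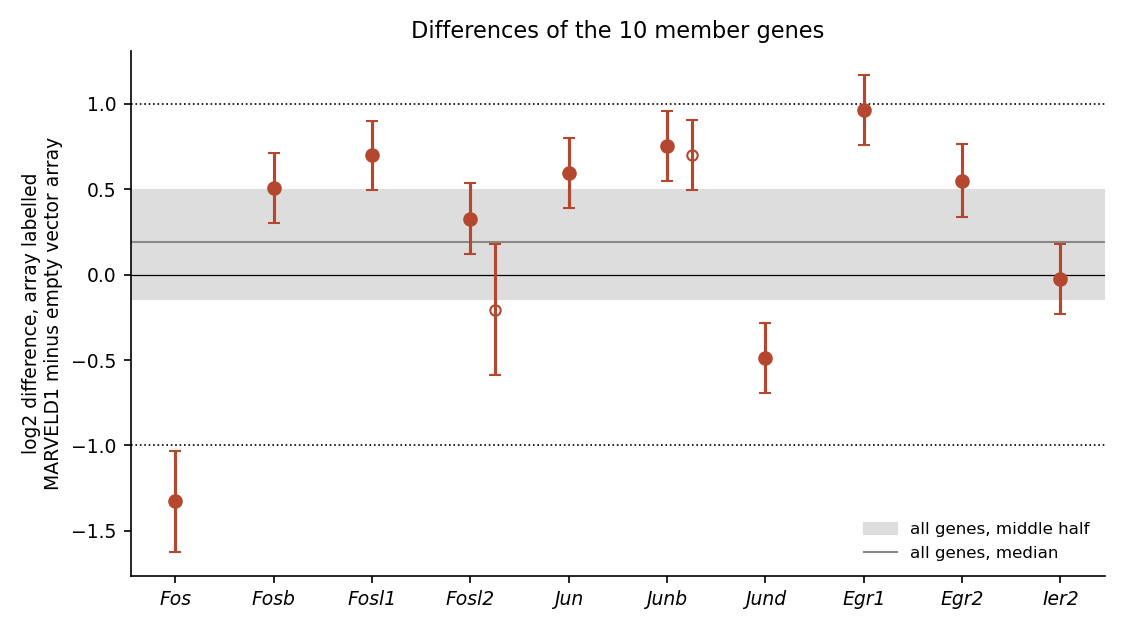
log2 difference of each member gene, array labelled MARVELD1 minus empty vector array; bars are the scanner program's error of a difference between single spots, open circles are second probes, the grey band runs from the lower to the upper quartile of all genes and its line their median of 0.19. Fos alone lies beyond the dotted 2-fold lines, and Egr1 comes nearest the upper one at 0.97.

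The Egr genes were both higher on the array labelled MARVELD1. Egr1, an early growth response factor induced together with Fos, read 1591.4 on the array labelled MARVELD1 and 889.2 on the empty vector array by its only probe, A_51_P367866 (mm9 chromosome 18, 35024395 to 35024454). The log2 difference of 0.97, or 1.95-fold, stopped just short of 2-fold, and 5.01% of genes measured on both arrays lay higher. It is 1 spot on each array with a scanner error of 0.20, so which side of 2-fold it falls on is not settled.

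Egr2, a related factor known for its part in peripheral nerve myelination, was printed 10 times. Its spots ranged from 262.9 to 387.4 with a median of 350.4 on the array labelled MARVELD1, against 196.5 to 272.4 with a median of 261.9 on the empty vector array. The ranges overlapped slightly, but at each of the 10 positions the spot was brighter on the array labelled MARVELD1 after scaling, by 0.10 to 0.78. The log2 difference was 0.55 ± 0.056 (SE over spots), or 1.46-fold. Egr1 and Egr2 differed from Fos in the same sense, with Fos minus Egr1 at -2.29, between -2.37 and -1.71 over 9 alternatives.

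Ier2, an immediate early gene for a small nuclear protein, gave a difference near 0. Its brighter probe read 3631.3 on the array labelled MARVELD1 and 4036.4 on the empty vector array, a scaled difference of -0.03 with a scanner error of 0.20. That lies 0.21 below the median of all genes, a gap about the size of that error. Its second probe, 1588 bases away, read 21.9 and 24.6, too dim to be well measured on either array, so it gives no fold. Of the 60 bases of the brighter probe, the files place 35 on mm9 chromosome 8 (87185211 to 87185245). Junb lies 315.7 kb from Ier2 on the same chromosome, and Ier2 minus Junb was -0.78.

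**Figure D4:**
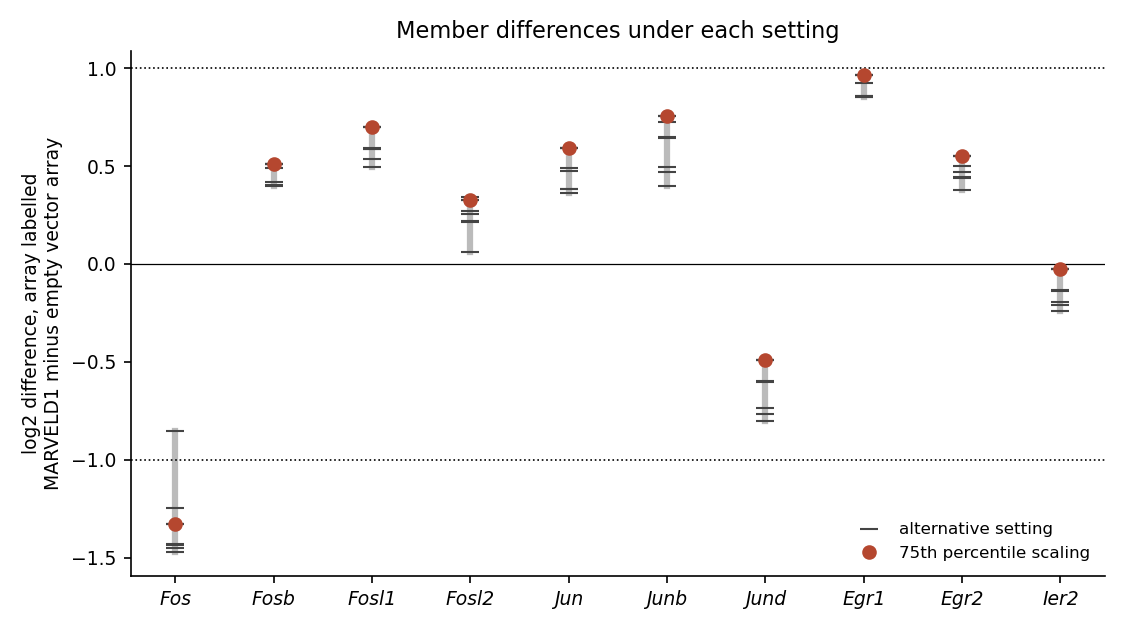
log2 difference of each member gene, array labelled MARVELD1 minus empty vector array, with 75th percentile scaling (filled circles) and under 9 alternative settings (dashes, joined by a bar). Each gene keeps its sign under the 9 alternatives, and the Fos range of -1.47 to -0.85 crosses the dotted 2-fold line.

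Spot noise gives the scale for these values. Over 78 repeated probes with intensities over 1000, the difference at one slide position had an SD of 0.12, over 66 probes between 100 and 1000 it was 0.28, and over 35 probes under 100 it was 0.48. Fosl1, Jun, Junb and Jund, which read over 1000 on both arrays, differed by more than that SD, and Ier2, also over 1000 on both, did not. Egr1, at 889.2 on the empty vector array, lay beyond the SD of either range. Between 100 and 1000, Fosb at 0.51 lay beyond 0.28, and Fosl2 at 0.33 barely did. These distances are from 0. Measured from the median of all genes, Ier2 at -0.21 lay beyond 0.12, and Fosl2 at 0.14 lay within 0.28. Spread between cultures could not be measured.

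Around the members, the measured genes that pair with AP-1 or work with Egr proteins differed by less than 2-fold by their brightest probes. These lists, like the members, were drawn up with results of these data known. None of 11 other leucine zipper partners passed 2-fold (0 higher, 0 lower), with a median of 0.31. Atf2 was at -0.01 by its brightest probe, but its other measured probes gave 1.21, 0.28 and -0.41. Batf3 was highest at 0.68 and Atf7 lowest at -0.64, while Atf3, itself a stress-induced partner of Jun, read 547.6 and 838.1 (-0.49). Of the other Egr genes and Nab corepressors, 3 were measured and 0 passed 2-fold in either direction, with Egr3 at 0.26 and Egr4 at 0.40 on dim probes. The other Egr3 probe gave 1.34, at 120.3 and 51.7, so the Egr3 probes disagree.

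Among 30 other immediate early genes, 1 was at least 2-fold higher and 1 lower, against 5.52% and 3.57% of all genes. The median of 0.13 lay 0.06 below that of all genes. Klf4, a Krüppel-like factor that restrains proliferation in many cells, read 19146.3 on the array labelled MARVELD1 and 44640.4 on the empty vector array, 2.13-fold lower. Nr4a3, an orphan nuclear receptor gene, was at least 2.44-fold higher, but its 73.6 on the array labelled MARVELD1 was near the floor and its 26.4 on the empty vector array was not well above background. Other members of the list were higher by less than 2-fold, with Ier3 at 0.91, Ccn1 at 0.90 and Myc at 0.57 by its brightest probe (0.55 and -0.21 by its other probes). Nr4a1 (-0.32), Btg2 (-0.32) and Zfp36 (-0.15), also serum-induced, were below 0. In all, 17 of the 30 were above 0 and 13 below, and the list's median was below 0 in 4 of 9 alternative settings.

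By each gene's brightest probe, the measured genes of the signalling upstream differed by less than 2-fold at this scaling. The largest of these differences were of like size to those of the members that were higher. Srf, the serum response factor itself, was at 0.84 (2531.3 against 1542.6) and its coactivator gene Mrtfa at 0.83 by its bright probe and 0.02 by a dim one. With the ternary complex factors and CREB they made a list of 11 with 0 past 2-fold in either direction and a median of 0.08 that was below 0 in 5 of 9 alternative settings. The coactivator gene Ep300 was lowest at -0.74. Crem, in the same list, was at -0.08 by its brightest probe but at -1.13, -0.84, -0.79 and -0.60 by its other measured probes. In the Ras and ERK cascade, 0 of 18 genes passed 2-fold either way and the median was 0.29, but in 3 of 9 alternative settings 1 gene was at least 2-fold lower. The adaptor gene Grb2 was highest at 0.76, with 0.69 by its other probe, and the adaptor gene Shc1 lowest at -0.94. Braf was at 0.63 by its brightest probe and 1.33 by another, with 0.28, 0.41 and 0.67 by its other measured probes. Mapk3, which encodes ERK1, was at -0.56 and by its other probe at -0.64. None of 17 JNK and p38 cascade genes passed 2-fold (0 higher, 0 lower), with a median of 0.17 (-0.01 after loess). Mapk8, which encodes JNK1, stood highest at 0.98 by its brightest probe, but a second measured probe gave -0.02, and Map3k7 was lowest at -0.67. Mapk9 was at 0.61 by its brightest probe but at -1.02 and -0.23 by its others.

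The genes that restrain MAP kinase signalling differed in both directions. Of 16 phosphatase and Sprouty or Spred genes, 2 were at least 2-fold higher and 1 lower, with a median of 0.33. Of all genes 5.52% were higher and 3.57% lower, and the counts are not read as a result about the list. In 6 of 9 alternative settings 1 was higher, and in all 9 settings 1 was lower. Dusp1, an immediate early phosphatase induced together with Fos, read 3430.6 on the array labelled MARVELD1 and 9137.1 on the empty vector array, 2.44-fold lower. Dusp9 was 3.99-fold higher, at 2175.5 and 595.4, and by 0.86 in log2 with its other probe. Dusp16 was 2.04-fold higher, at 2014.1 and 1076.4, with 0.71 and 0.39 from its other probes. Dusp6 and Dusp4, both induced by ERK activity, were at 0.68 and 0.79, the second at 0.28 by another probe. By their brightest probes Spry1, Spry2 and Errfi1 lay between 0.04 and 0.06, while the other Spry2 probe gave 0.41. Dusp1 lay below 0 like Fos, and Dusp4 and Dusp6 lay above 0 like Egr1, as did 12 of the 16 genes. Whether any of them share a control with Fos or Egr1 was not tested.

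**Figure D5:**
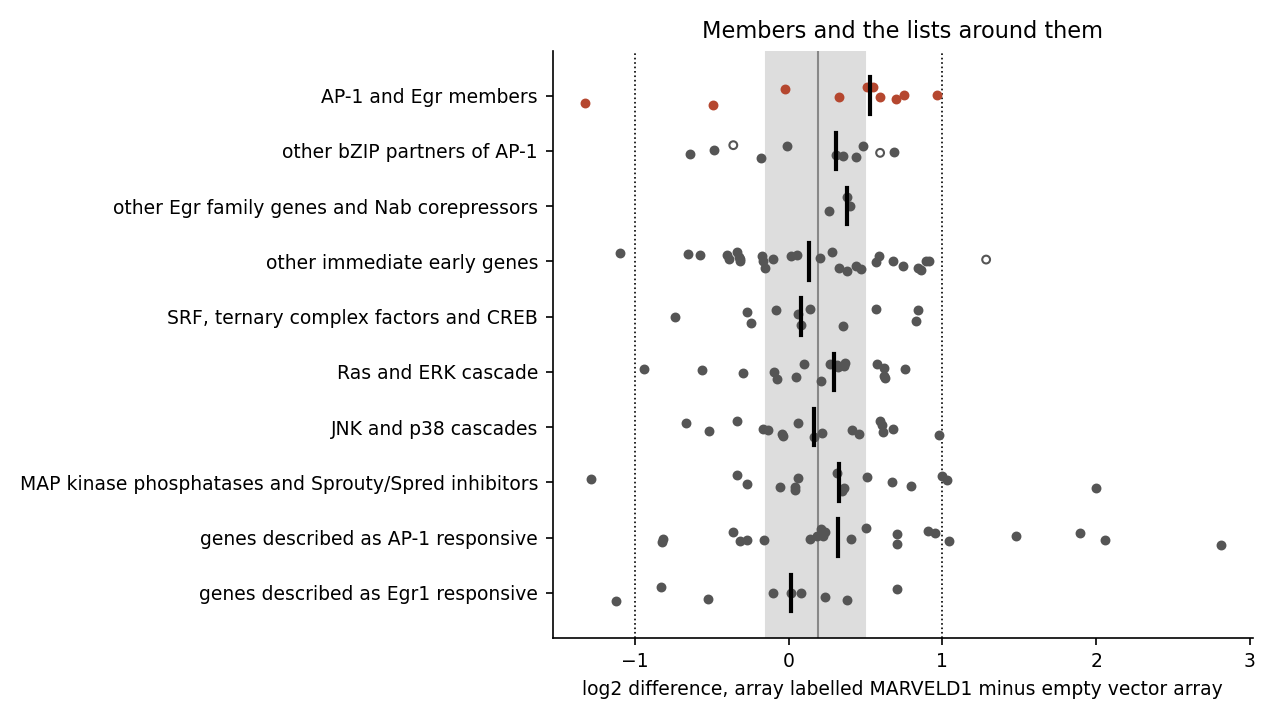
log2 difference of each gene, array labelled MARVELD1 minus empty vector array, for the members (red, top row) and 9 lists around them; open circles are bounds, black bars are list medians, the grey band runs from the lower to the upper quartile of all genes and dotted lines mark 2-fold. The members' median of 0.53 is the highest of these rows, and the genes described as AP-1 responsive reach furthest to the right. The cell type marker lists are not drawn, with medians of 0.55 (epithelial), 0.49 (macrophage and lymphoid), 0.31 (endothelial) and -0.72 (fibroblast).

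Genes described elsewhere as AP-1 responsive included 5 of 22 at least 2-fold higher and 0 lower, with a median of 0.32, where 5.52% of all genes were higher and 3.57% lower. In 6 of 9 alternative settings 4 were higher, and in 3 of them 1 was lower. The list was written with the values of several of these genes known, so its count is not independent evidence. The 5 were Mmp3 and Mmp10, which encode stromelysins, Hbegf, an EGF receptor ligand, and Plaur and Plau, the urokinase receptor and urokinase. Mmp3 read 458.7 on the array labelled MARVELD1 and 71.3 on the empty vector array, and Mmp10 read 837.5 and 220.2. Hbegf read 3752.1 and 1103.3. Plaur was 2.79-fold higher by its brighter probe, but its other probe, at 5413.4 and 3664.8, gave 1.61-fold. Plau was 2.06-fold higher at 135.5 and 71.7, and 1.76-fold by its other probe. Others of the list lay below 0, with the metallothionein gene Mt1 at -0.82 and the cytokine gene Il6 at -0.81, and Cd44 was at 0.70. Of 9 measured genes described as Egr1 responsive, 0 were at least 2-fold higher and 1, the fibronectin gene Fn1, was 2.18-fold lower, with a median of 0.02 that was below 0 in 5 of 9 alternative settings. Cd44 was the highest of the Egr1 responsive list at 0.70 by its brightest probe, with 0.33 and 0.03 by its other probes. In that list Mmp14 was at -0.53 by its brightest probe and -1.17 by its other. Whether AP-1 or Egr proteins acted on any of these genes was not measured.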

How the data were processed

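Members and lists were chosen with earlier results of these data known. Per the file headers, the authors' deposited scanner files hold each spot's intensity from Agilent Feature Extraction (version 9.5.3.1), background-subtracted and detrended within the array, with no scaling between arrays. The authors' deposited table of normalized intensity equals it divided by 1 factor per array for 99.7% of probes (within 1%). Its scale is linear and not centred, its direction is that of the scanner files, and its medians are 2.94 (array labelled MARVELD1) and 3.11 (empty vector array).

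Control and outlier spots were left out. The log2 intensity minus the array's 75th percentile was averaged over a probe's spots. Probes were named through RefSeq (assembly GRCm38.p6): of 41084 probes, 24802 matched by accession, 6030 by symbol, 1808 by an older name and 8444 by none. Probes well above background on at least 1 array were kept, and a gene took the one of these with the highest mean. A probe well above background on 1 array only has a bound, against the higher of its own dim value and the lowest well-measured value. Named were all members, and from each list the highest, lowest and 2-fold genes, with others picked after their values were seen. Promoter letters came from RefSeq. The calculation was tested on simulated data. The design has 1 array per group, so no p-value was computed. Tools were Python 3.11.15, statsmodels 0.14.6 and limma 3.58.1 in R 4.3.3.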

Additional observations from a re-analysis of the deposited data

How the results depend on the processing

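The member differences were recomputed under 9 settings: array median scaling, quantile normalization, loess, normexp with quantile normalization, the authors' deposited table, genes kept whatever their signal, genes required to be well measured on both, probes averaged per gene, and keeping flagged spots (the last chosen after seeing the data). All 10 members kept their sign in the 9 settings. The members' median stayed between 0.38 and 0.53, and between 0.33 and 0.38 above that of all genes. Differences moved by more than the spot SD of 0.29 for Fos with normexp (-0.85), for Junb with normexp (0.40) and for Jund after loess (-0.80). Members at least 2-fold lower numbered 0 with normexp and 0 at a 3-fold limit, in place of 1, and members higher numbered 4 at a 1.5-fold limit, in place of 0. Over all genes, 913 were higher and 590 lower at 2-fold. Higher genes numbered 295 with normexp and 479 in the authors' table. At 1.5-fold 3253 were higher and 1493 lower, and at 3-fold 211 and 219. The share of higher among all 2-fold genes was 60.7%, against 48.6% with median scaling, 44.1% after loess, 48.8% under quantile normalization, 43.7% in the authors' table and 41.0% with normexp. Counts past 2-fold in the 13 other lists differed by at most 2 genes from those given. No paired analysis was possible because each group has 1 array. Fos, Fosl2's dim probe and Nr4a3 are limited by their signal over background.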
